A study of Mus musculus with 18 samples.

Results

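The beating cilium of an airway cell is built around the motile axoneme, and transcripts of 44 genes for its parts were followed here through 6 sorted cell populations of the mouse respiratory tract. The 44 genes were listed by symbol, for the parts their proteins form, and all 44 were found among the 27179 genes of the count files. The rule uses no expression value, but the members were chosen with earlier results of these data known. All 44 also passed the filter on low counts, which asked for a CPM (counts scaled to the total of the library) over 0.2 in 3 or more libraries and left 17989 genes for testing.

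In a motile axoneme, doublet microtubules surround a central pair, and outer and inner dynein arms fixed to each doublet make neighbouring doublets slide. Radial spokes and the central pair control the arms, tektins and other proteins line or brace the doublets, and assembly factors prepare the arms in the cytoplasm before they are carried into the cilium. In the airways these parts belong to multiciliated cells, which clear mucus, and their genes are known targets of the transcription factor FOXJ1 and of the RFX family.

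The study compared epithelial stem and progenitor cells of the airways and alveoli by RNA-seq, and its mouse libraries came from untreated C57BL/6 animals, whose age is not given in the labels. From the tracheas of mice 1 to 3, NGFR-positive cells were sorted as basal stem cells (BSCs) and NGFR-negative cells as a non-basal population. The lungs of mice 4 to 6 gave 4 populations. Airway CD24hi cells (EpCAM-positive, CD104-positive, high CD24) are labelled as enriched in ciliated cells, and airway CD24lo cells (the same gate with low CD24) as enriched in club cells, the secretory cells of small airways. Alveolar cells were EpCAM-positive with low CD104, and the remaining population was EpCAM-negative. Each population had 3 libraries, 1 per mouse, numbered in the order of the mice. Organ, mice and population therefore cannot be told apart between trachea and lung. The p-values rest on a spread between libraries of the same population that was estimated over all 18 libraries together, with no term for the mouse.

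Counted reads ranged from 29317215 to 32993621 in the tracheal libraries and from 9811503 to 13208897 in those of the lung. In a chi-square comparison of counts, 5 libraries stood apart from the other libraries of their own population (BSC 1, non-basal 1, CD24hi 1, CD24lo 1 and alveolar 2), with 21.2 to 39.6 per degree of freedom against 3.50 to 7.51 for the other pairs. The labels of the airway gates were set against summed markers. The 5 ciliated-cell markers summed to 4477 to 5301 RPKM (counts scaled to gene length and to the total of the library) in CD24hi cells. They summed to at most 821 RPKM in any library of the other populations. Club-cell markers summed to 490456 to 691298 RPKM in CD24lo cells and still to 72615 to 95364 RPKM in CD24hi cells, so each gate carried markers of the cell type named for the other. The club markers *Scgb1a1* and *Aldh1a7* were highest in CD24lo cells. *Scgb3a2* and *Cyp2f2* had higher means in non-basal cells (12872 and 14268 RPKM) than in CD24lo cells (10702 and 11594 RPKM). In bulk samples such as these, fewer cells of a type and less RNA per cell cannot be told apart.

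Promoter sequence was examined first, because FOXJ1 and the RFX family are known regulators of axoneme genes as a class, though not shown here for each of the 44. RefSeq windows of GRCm38.p6, from 250 bases before to 50 bases after a transcript start, were found for 37 of the 44 genes, in 42 windows. The RFX half-site GTTGCC, searched on both strands, stood in 42.9% of these windows and in 12.9% of the 16789 windows of all genes tested. A full X-box, an inverted repeat of RFX half-sites with at most 3 bases between them, stood in 21.4% of the members' windows and in 1.73% of those of all genes tested. The X-box can contain a half-site, so these counts share windows. The forkhead core GTAAACA, the kind of element FOXJ1 is known to bind, was found in 4.76% of the members' windows, those of *Ak7* and *Cfap43*, and in 2.75% of all tested windows. A match describes the letters in a window and is not evidence of binding.

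**Figure D1:**
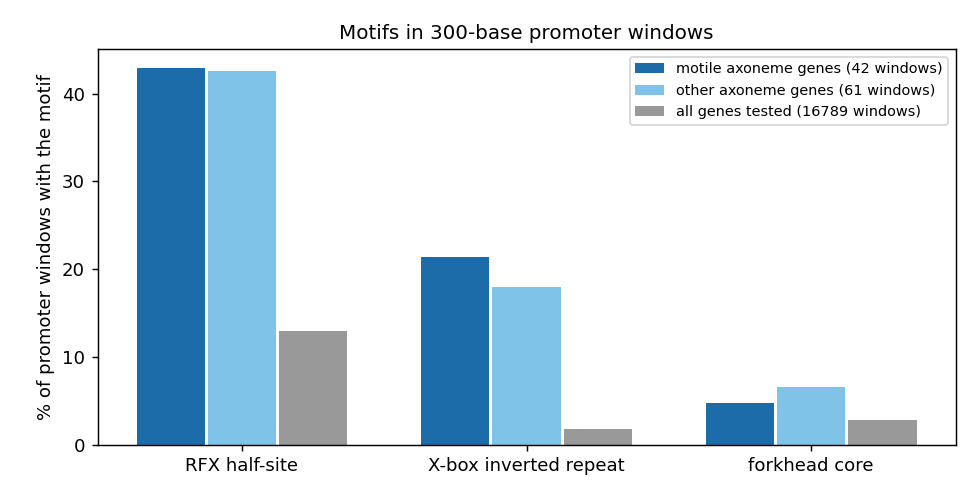
Percent of promoter windows (y axis) holding each of 3 motifs, for the 42 windows of motile axoneme genes, the 61 windows of other axoneme genes and the 16789 windows of all genes tested. The bars for the X-box stand at 21.4%, 18% and 1.73%, those for the RFX half-site at 42.9%, 42.6% and 12.9%.

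The X-box was found for 8 members, *Ccdc103*, *Cfap44*, *Dnaaf2*, *Dynlrb2*, *Hydin*, *Spag16*, *Spef2* and *Tekt2*. The stretches of the 6 members whose box ended before the transcript start are printed 5′ to 3′ on the gene's strand, with the X-box in capitals. The boxes of *Ccdc103*, from −3, and *Spef2*, from 8, did not. The 6 include the most abundant member (*Dynlrb2*) and members with some of the widest differences between populations (*Hydin*, *Tekt2*, *Spag16*). They also include the member with the narrowest difference between the airway gates (*Dnaaf2*). Positions count from the transcript start. The box of *Dynlrb2* began at −51 (chr8:116504944-116504996, plus strand), that of *Hydin* at −21 (chr8:110266936-110266976, plus strand) and that of *Spag16* at −103 (chr1:69826847-69826900, plus strand). The box of *Cfap44* began at −27 (chr16:44394752-44394798, plus strand), that of *Tekt2* at −29 (chr4:126325689-126325737, minus strand) and that of *Dnaaf2* at −17 (chr12:69198430-69198466, minus strand).
Dynlrb2: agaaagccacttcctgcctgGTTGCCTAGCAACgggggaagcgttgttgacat
Hydin: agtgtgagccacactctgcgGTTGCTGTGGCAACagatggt
Spag16: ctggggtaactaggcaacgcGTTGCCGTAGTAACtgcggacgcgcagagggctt
Cfap44: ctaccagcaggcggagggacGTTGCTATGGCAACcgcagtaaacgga
Tekt2: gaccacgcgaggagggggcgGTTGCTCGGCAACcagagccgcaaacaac
Dnaaf2: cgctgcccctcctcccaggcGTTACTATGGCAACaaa

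The 44 genes were most abundant in airway CD24hi cells. In all 44, each of the 3 CD24hi libraries lay above all 15 libraries of the other populations, an ordering seen in 15.2% of the genes tested. The members took 1.79%, 1.94% and 1.86% of the counted reads in the CD24hi libraries. They took 0.290%, 0.111% and 0.112% in the CD24lo libraries and 0.0737%, 0.119% and 0.0759% in the non-basal libraries. In the BSC, EpCAM-negative and alveolar libraries the share lay between 0.0134% and 0.0198%. The median member stood at 89.0 RPKM in CD24hi cells, 9.63 in CD24lo cells, 4.64 in non-basal cells, 0.710 in alveolar cells, 0.403 in EpCAM-negative cells and 0.275 in BSCs.

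**Figure D2:**
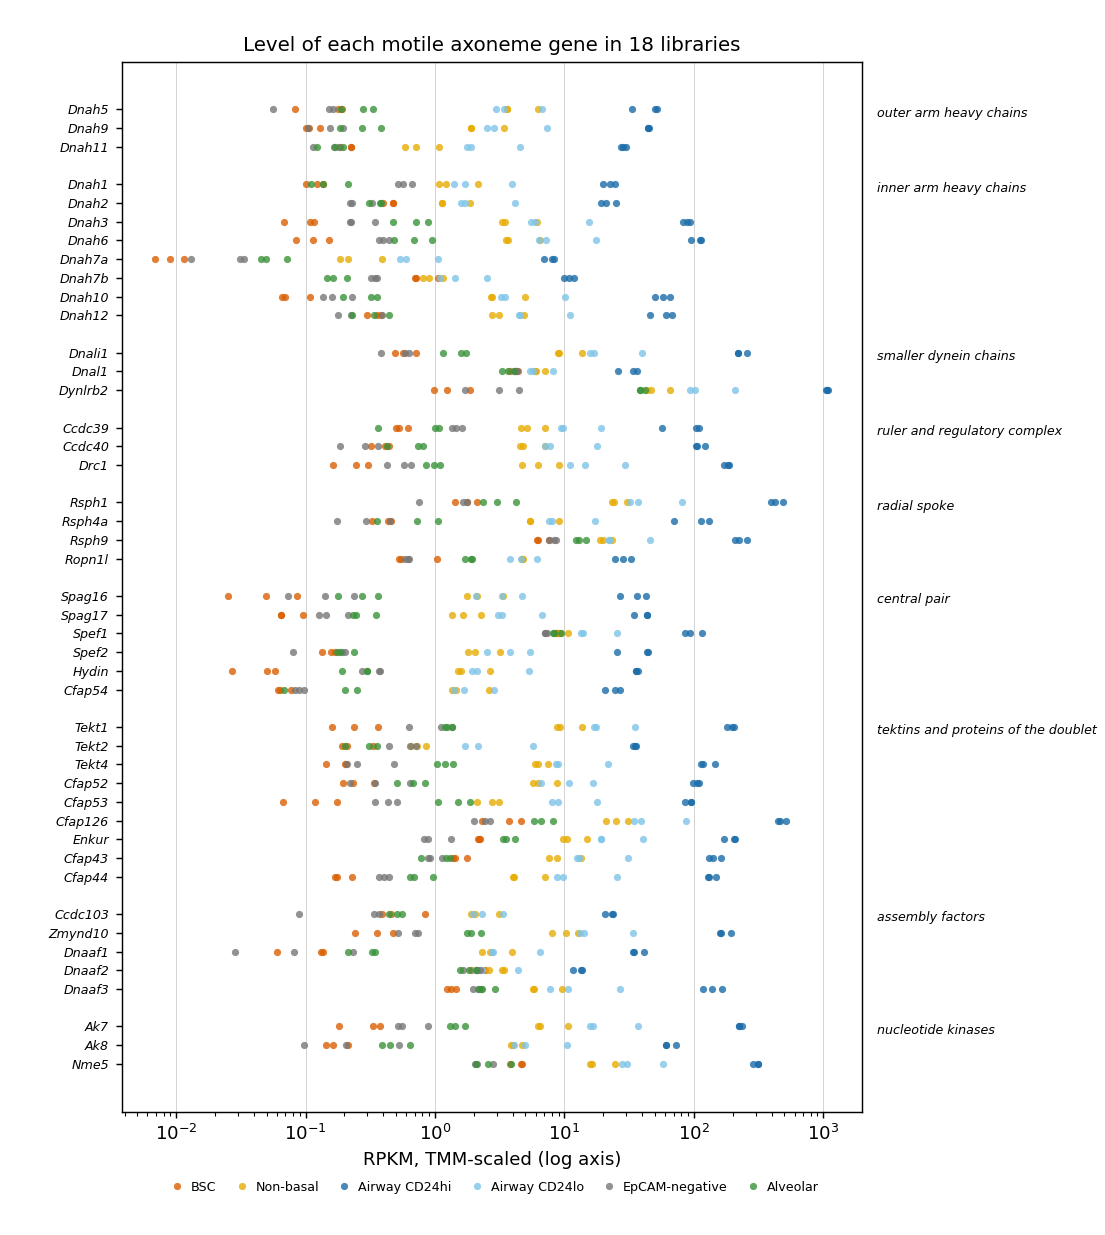
RPKM in each of the 18 libraries (x axis, log scale; 1 point per library, coloured by population) of the 44 motile axoneme genes (y axis, grouped by role). The 3 CD24hi points lie farthest right for all 44 genes, with means from 7.77 RPKM for *Dnah7a* to 1068 RPKM for *Dynlrb2*.

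The 5 most abundant members in CD24hi cells were *Dynlrb2* and *Dnali1* of the smaller dynein chains, *Rsph1* of the radial spoke, *Cfap126* of the doublet and the nucleotide kinase gene *Nme5*. *Dynlrb2*, a roadblock-type dynein light chain (Entrez Gene 75465), was at 1090.3, 1062 and 1053 RPKM in the 3 CD24hi libraries, a mean of 1068 ± 19.5 (SD, n = 3). Its other levels were 209, 102 and 93.4 RPKM in CD24lo cells, 46.8, 65.2 and 43.8 in the non-basal population and 1.88, 1.23 and 0.987 in BSCs. No library of these other populations overlapped the CD24hi libraries, and CD24lo library 1 was the highest of them. *Dynlrb2* alone made up 18.6% of the summed RPKM of the members in CD24hi cells, and the 5 most abundant members together made up 43.7%.

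*Cfap126* (Flattop), a protein attached to the doublets, was at 512, 459.5 and 448 RPKM in CD24hi cells. *Rsph1*, of the radial spoke head, was at 486, 420.0 and 394 RPKM, and *Nme5*, a radial spoke protein with a nucleoside diphosphate kinase domain, at 287, 315 and 314 RPKM. *Dnali1*, the light intermediate chain of inner arms, was at 257, 219.7 and 219.6 RPKM. These 4 genes kept the order of populations seen for *Dynlrb2* in CD24hi, CD24lo and non-basal cells, with means in CD24lo cells of 53.1, 49.9, 38.7 and 24.2 RPKM and in non-basal cells of 25.6, 26.0, 19.0 and 10.5 RPKM.

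The 11 dynein heavy chains, the motor subunits, have transcripts of 10638 to 15616 bases, the longest in the list apart from *Hydin* (15783 bases). The heavy chains lay between 7.77 and 106 RPKM in CD24hi cells. Their median was 44.5 RPKM, against 105 RPKM for the remaining members. Over the 44 genes, length and RPKM in CD24hi cells had a Spearman rho of −0.56, a description in which all points share the same 3 libraries.

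Between the airway gates of the same lungs, all 44 genes were higher in CD24hi than in CD24lo cells by edgeR's quasi-likelihood test at an adjusted p-value under 0.05, where 27.8% of all genes tested were higher. The median log2 fold change of the members was 3.20, with a range of 2.13 to 3.60, and that of all genes tested was −0.06. The roles lay close together. Medians were 3.37 for the 3 outer arm heavy chains, 3.26 for the 8 inner arm heavy chains, 2.98 for the 3 smaller dynein chains and 3.30 for the ruler and regulatory complex (*Ccdc39*, *Ccdc40*, *Drc1*). The radial spoke genes had a median of 3.02, the central pair genes 3.33, the tektins and other doublet proteins 3.15, the assembly factors 3.14 and the nucleotide kinases 3.30. The SD of the log2 fold change over the 44 members was 0.31, and the standard errors of the single genes ran from 0.15 to 0.36.

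The 3 widest differences were those of *Cfap54*, *Hydin* and *Tekt2*. *Cfap54*, needed for a projection of the central pair, was at 20.5, 24.8 and 27.0 RPKM in CD24hi cells and at 2.86, 1.41 and 1.66 RPKM in CD24lo cells. Its log2 fold change was 3.60 (SE 0.27, adjusted p = 5.8e-09 by edgeR's quasi-likelihood test with Benjamini-Hochberg adjustment). *Hydin*, a giant central pair protein mutated in hydrocephalus of mice, was at 35.9, 35.6 and 36.8 RPKM against 5.29, 2.10 and 1.93 RPKM. *Tekt2*, a filament protein of the doublet, was at 35.2, 34.1 and 35.5 RPKM against 5.73, 1.71 and 2.16 RPKM. In all 3 genes the populations were far apart and CD24lo library 1 held the highest CD24lo value. Without that library the log2 fold change rose from 3.53 to 4.16 for *Hydin* and from 3.42 to 4.18 for *Tekt2*.

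The 3 narrowest differences were those of *Dnaaf2*, *Dnal1* and *Spef1*. *Dnaaf2*, an assembly factor for dynein arms, was at 13.7, 11.6 and 13.4 RPKM in CD24hi cells and at 4.40, 2.31 and 2.05 RPKM in CD24lo cells, a log2 fold change of 2.13 (SE 0.22, adjusted p = 1.99e-07 by edgeR's quasi-likelihood test). *Dnal1*, the outer arm light chain that binds a heavy chain motor domain, was at 26.1, 33.6 and 36.2 against 8.13, 5.45 and 5.75 RPKM, a log2 fold change of 2.31 (SE 0.15). *Spef1*, a microtubule-bundling protein of the central pair, was at 116, 92.9 and 86.1 against 25.3, 13.9 and 13.4 RPKM, a log2 fold change of 2.48 (SE 0.18). The populations did not overlap in any of the 3 genes. For *Dnaaf2*, 71.4% of exonic bases overlap other annotated genes, on both strands, and for *Spef1* 13.4% do. Whether reads were counted by strand is not given in the sources used here, so reads of these neighbours cannot be told apart.

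**Figure D3:**
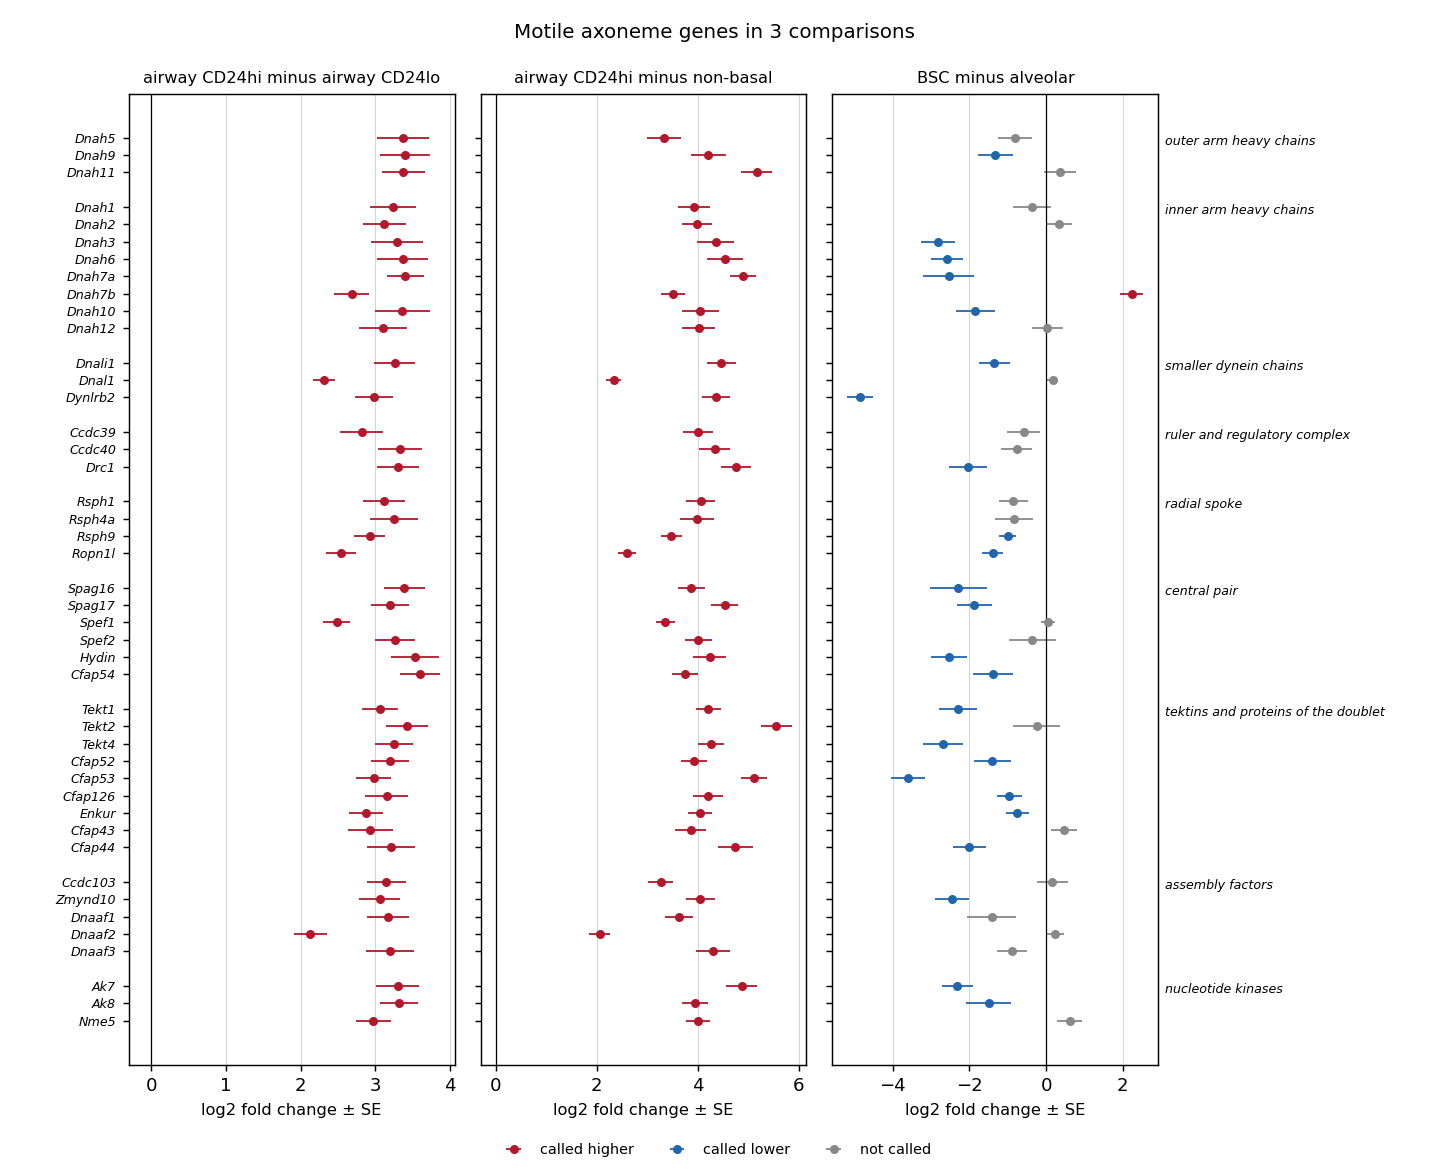
Log2 fold change with its standard error (x axis) of each motile axoneme gene (y axis, grouped by role) in 3 comparisons, coloured by the edgeR call at an adjusted p under 0.05. All 44 genes were higher in CD24hi than in CD24lo cells (2.13 to 3.60) and than in non-basal cells (2.06 to 5.55), whereas BSCs and alveolar cells gave 24 lower, 1 higher and 19 uncalled genes.

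The level left in CD24lo cells was nearly the same share of the CD24hi level for most members. The median was 10.8%, the quartiles 9.96% and 12.6%, and the range 8.21% (*Cfap54*) to 22.6% (*Dnaaf2*). Markers of ciliated cells outside the list were at 11.3% for *Foxj1*, 10.5% for *Tppp3*, 9.38% for *Cdhr3*, 11.3% for *Ccdc113* and 9.80% for *Fam183b*. The libraries differed, with member medians of 17.6% in CD24lo library 1 and of 7.62% and 7.69% in libraries 2 and 3.

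CD24lo library 1 held the highest CD24lo value for all 44 members, whereas it did so for 39.4% of the genes tested. Its level was a median of 2.28 times the mean of the other CD24lo libraries over the members, from 1.45 times for *Dnal1* to 2.98 times for *Dnah10*, against a median of 1.01 over all genes tested. *Foxj1* was at 2.07 times and the club marker *Scgb1a1* at 0.713 times in the same library. Endothelial markers (*Pecam1*, *Cdh5*, *Cldn5*) summed to 215 RPKM there and to 73.9 and 69.9 RPKM in CD24lo libraries 2 and 3, and fibroblast markers to 66.3, 41.1 and 51.4 RPKM. In CD24hi libraries 1, 2 and 3 endothelial markers summed to 177, 74.7 and 41.4 RPKM and fibroblast markers to 32.8, 18.6 and 11.9 RPKM. CD24hi library 1 came from the same mouse as CD24lo library 1, and its members stood at a median of 1.01 times the other CD24hi libraries. The part of these cell types in the difference between CD24lo libraries was not tested. Without CD24lo library 1 the median log2 fold change from CD24lo to CD24hi was 3.72 and all 44 genes were still called. Without the 5 libraries that stood apart it was 3.76, again with 44 genes called.

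**Figure D4:**
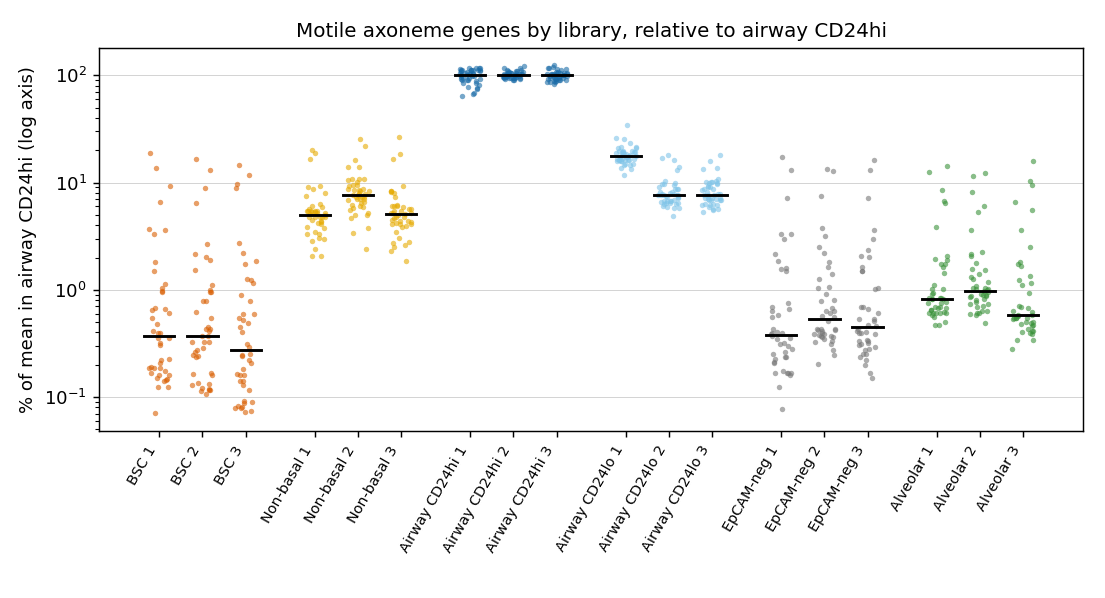
Level of the 44 motile axoneme genes in each library (x axis) as a percent of the mean RPKM of the same gene in airway CD24hi cells (y axis, log scale), with 1 point per gene and a line at the median of each library. The medians lie at 17.6%, 7.62% and 7.69% in CD24lo cells, 5.03%, 7.68% and 5.06% in non-basal cells and under 1% in alveolar, EpCAM-negative and BSC libraries.

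Against alveolar cells of the same lungs, all 44 genes were higher in CD24hi cells by edgeR's quasi-likelihood test, where 30.5% of all genes tested were higher. The median log2 fold change was 7.02 (range 2.82 to 7.63), and that of all genes tested was −0.01. *Dnah10*, an inner arm heavy chain, had the widest difference, with 65.0, 57.7 and 50.1 RPKM in CD24hi cells and 0.320, 0.354 and 0.194 RPKM in alveolar cells, a log2 fold change of 7.63 (SE 0.47, adjusted p = 1.22e-10 by edgeR's quasi-likelihood test). *Spef2*, a central pair protein, followed at 7.56 (SE 0.38) and *Drc1*, a subunit of the nexin-dynein regulatory complex, at 7.53 (SE 0.37). The populations did not come near each other in *Drc1*, with 187, 171 and 183 against 0.856, 1.10 and 0.980 RPKM. The narrowest differences were again those of *Dnaaf2* (2.82), *Dnal1* (3.12) and *Spef1* (3.52).

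All 44 genes were also higher in CD24lo than in alveolar cells by edgeR's quasi-likelihood test, where 24.2% of all genes tested were higher. The median log2 fold change was 3.73 (range 0.69 to 4.31), and it was 3.25 without CD24lo library 1. *Dnah12*, an inner arm heavy chain, was widest at 4.31 (SE 0.39), with 11.1, 4.50 and 4.53 RPKM in CD24lo cells and 0.340, 0.441 and 0.228 RPKM in alveolar cells. *Spef2* at 4.30 and *Dnah10* at 4.26 followed, and *Dnah10* came to 3.53 without CD24lo library 1. *Dnaaf2* was at 4.40, 2.31 and 2.05 RPKM in CD24lo cells and at 1.84, 1.57 and 2.07 RPKM in alveolar cells, so its populations overlapped. Its log2 fold change of 0.69 (SE 0.24, adjusted p = 0.0258 by edgeR's quasi-likelihood test) was not called without CD24lo library 1 (0.26, adjusted p = 0.315), without alveolar library 1 (adjusted p = 0.0605) or without alveolar library 2 (adjusted p = 0.0923).

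In alveolar cells the members were low, with 26 of 44 under 1 RPKM, yet *Dynlrb2* was not. It was at 41.6, 38.6 and 38.6 RPKM, which was 3.71% of its CD24hi level against a median of 0.765% over the members. It made up 36.4% of the summed RPKM of the list in these cells. *Rsph9*, of the radial spoke head, followed at 14.7, 12.2 and 12.9 RPKM (5.77% of CD24hi), then *Spef1* at 8.37, 8.09 and 9.36 RPKM and *Cfap126* at 8.18, 6.59 and 5.86 RPKM. *Enkur*, a protein inside the doublet, had a mean of 3.69 ± 0.404 RPKM (SD, n = 3) and *Dnal1* one of 3.67 ± 0.379 RPKM (SD, n = 3). *Dnal1*, *Rsph9*, *Ropn1l*, *Spef1* and *Dnaaf2* were the 5 members above 5% of their CD24hi level in alveolar cells, with 11.5%, 5.77%, 6.46%, 8.75% and 14.1%, while *Foxj1* was at 0.690%.

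Within the trachea, 42 of the 44 genes were higher in non-basal cells than in BSCs of the same mice by edgeR's quasi-likelihood test, where 26.2% of all genes tested were higher, and 2 were not called. The median log2 fold change was 4.09 (range 0.11 to 5.45), and that of all genes tested was 0.02. The 3 widest differences were those of *Dnah3*, *Dnah10* and *Spag16*. *Dnah3*, an inner arm heavy chain, was at 3.29, 6.14 and 3.46 RPKM in the non-basal libraries against 0.109, 0.117 and 0.0688 RPKM in BSCs, a log2 fold change of 5.45 (SE 0.42, adjusted p = 1.1e-08 by edgeR's quasi-likelihood test). *Dnah10* at 5.42 (SE 0.44) and *Spag16*, a central pair protein, at 5.42 (SE 0.43) followed. *Spag16* was at 2.10, 3.37 and 1.78 RPKM against 0.0251, 0.0852 and 0.0498 RPKM. Non-basal library 2 was the highest in these genes and in 42 of the 44 members (28.8% of all genes tested), with a median of 1.55 times the mean of the other non-basal libraries, and *Foxj1* was at 1.44 times there.

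The narrowest tracheal differences were those of *Spef1*, *Dnah7b* and *Dnaaf2*. *Spef1* was at 9.23, 10.6 and 9.06 RPKM in the non-basal libraries, which overlap the 9.13, 8.76 and 8.83 RPKM of BSCs, and its log2 fold change was 0.11 (SE 0.18, adjusted p = 0.631 by edgeR's quasi-likelihood test). *Dnah7b*, an inner arm heavy chain, had 0.810, 1.15 and 0.899 RPKM against 0.711, 0.702 and 1.06 RPKM, with a log2 fold change of 0.21 (SE 0.22, adjusted p = 0.467). *Dnaaf2* was at 2.61, 3.27 and 3.42 against 2.44, 2.13 and 1.88 RPKM, which do not overlap. Its log2 fold change was 0.53 (SE 0.20, adjusted p = 0.0402 by edgeR's quasi-likelihood test). This call was lost without BSC library 2 (adjusted p = 0.0936), BSC library 3 (0.143), non-basal library 2 (0.104) or non-basal library 3 (0.128).

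Non-basal cells stood below CD24hi cells in all 44 genes by edgeR's quasi-likelihood test, where 36.9% of all genes tested were higher in CD24hi cells. The median log2 fold change was 4.05 (range 2.06 to 5.55), that of all genes tested was 0.08, and the SD over the members was 0.68, against 0.31 between the airway gates of the lung. The median member held 6.05% of its CD24hi level in non-basal cells, with quartiles of 4.89% and 6.85%, and the ciliated-cell markers *Foxj1*, *Tppp3*, *Cdhr3*, *Ccdc113* and *Fam183b* held 6.84%, 6.79%, 4.20%, 3.85% and 3.60%. *Tekt2* was lowest on this scale at 2.13%, with 0.730, 0.846 and 0.654 RPKM in non-basal cells and a log2 fold change of 5.55 (SE 0.31, adjusted p = 4.78e-11 by edgeR's quasi-likelihood test). For *Tekt2*, 25.7% of exonic bases overlap an annotated gene on the opposite strand. *Dnah11* followed at 5.16 (SE 0.31) and *Cfap53*, a protein inside the doublet, at 5.11 (SE 0.26), with 84.7, 94.5 and 95.7 RPKM in CD24hi cells against 2.76, 3.10 and 2.10 RPKM. The narrowest were *Dnaaf2* (2.06, SE 0.20), *Dnal1* (2.33, SE 0.14) and *Ropn1l*, a radial spoke protein (2.60, SE 0.18).

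CD24lo cells had a higher mean than non-basal cells for 42 of the 44 members, the exceptions being *Dnah5* and *Dnaaf2*. Without CD24lo library 1 the mean was higher for 36 members, and *Dnah10*, *Dnal1*, *Ropn1l*, *Cfap54*, *Ccdc103* and *Dnaaf1* joined the exceptions. The separation was incomplete. Every CD24lo library lay above every non-basal library for 19 of the 44 members, where 29.5% of all genes tested showed this, and the libraries overlapped for 25.

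The 3 outer arm heavy chains stood in different proportions in non-basal and CD24hi cells. As background, outer arms pair DNAH5 with DNAH11 near the base of an airway cilium and with DNAH9 towards its tip. *Dnah5* was at 3.59, 6.29 and 3.57 RPKM in non-basal cells and at 33.3, 50.0 and 52.0 RPKM in CD24hi cells. *Dnah9* was at 1.91, 3.41 and 1.91 RPKM against 44.4, 44.7 and 44.4 RPKM. *Dnah11* was at 0.591, 1.08 and 0.717 RPKM against 27.2, 29.9 and 28.2 RPKM. Each gene was separated between the populations, and the log2 fold changes were 3.33 (SE 0.34), 4.21 (SE 0.34) and 5.16 (SE 0.31), in that order.

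The RPKM ratio of *Dnah11* to *Dnah5* was 0.165, 0.171 and 0.201 in the non-basal libraries and 0.818, 0.598 and 0.543 in the CD24hi libraries, with geometric means of 0.178 and 0.643, a 3.61-fold difference. The ratio of *Dnah9* to *Dnah5* was 0.531, 0.543 and 0.535 against 1.33, 0.894 and 0.854, a 1.88-fold difference. Neither ratio overlapped between the populations, and the exact two-sided permutation p was 0.1 for each of the 2 ratios compared, the smallest that 3 libraries against 3 can give. The CD24lo libraries had 0.678, 0.643 and 0.513 for *Dnah11* to *Dnah5* and 1.09, 0.958 and 0.738 for *Dnah9* to *Dnah5*, within or next to the CD24hi range. In BSCs, where these genes were at or under 0.224 RPKM, the ratios were 1.04, 1.16 and 2.68 for *Dnah11* to *Dnah5* and 0.573, 0.666 and 1.28 for *Dnah9* to *Dnah5*. These ratios were chosen after their values were seen. CD24hi library 1, which stood apart from its replicates, had the highest ratios and the lowest *Dnah5* level of its population.

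**Figure D5:**
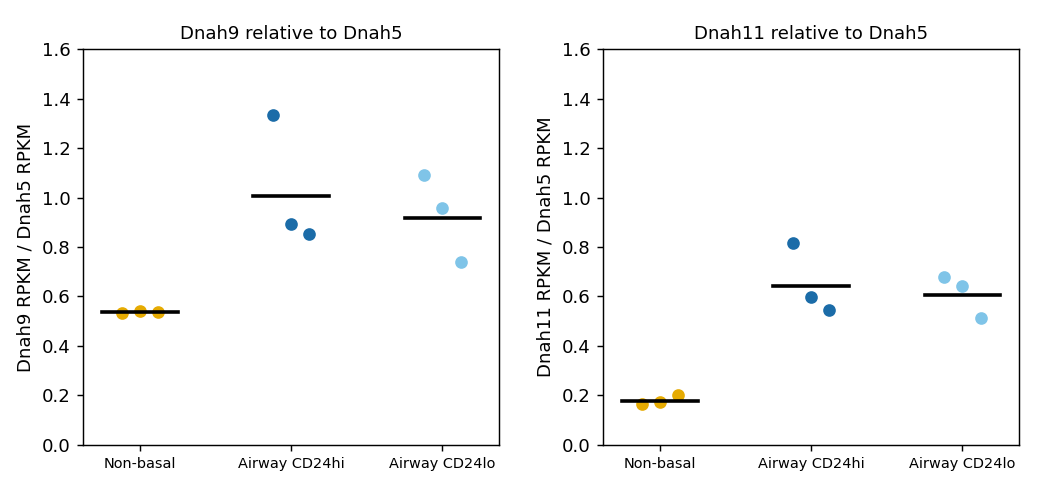
RPKM ratio (y axis) of *Dnah9* to *Dnah5* and of *Dnah11* to *Dnah5* in each library (points) of non-basal, airway CD24hi and airway CD24lo cells, with a line at the geometric mean. Non-basal libraries lie at 0.531 to 0.543 and 0.165 to 0.201, below all libraries from the lung airways.

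BSCs and alveolar cells, the pair the study centred on, held a median of 0.345% and 0.765% of the CD24hi level of the members. Of the 44 genes, 24 were lower and 1 was higher in BSCs by edgeR's quasi-likelihood test, and 19 were not called, where 35.6% of all genes tested were lower and 30.5% higher. The median log2 fold change was −1.16, with a range of −4.85 to 2.24, and that of all genes tested was −0.09. With library sizes unscaled by TMM, 17 members were lower and 5 higher, and the median of all genes moved to 0.29. Lower members were found in every role: 7 of 9 tektins and doublet proteins, 4 of 6 central pair genes, 4 of 8 inner arm heavy chains, 2 of 4 radial spoke genes, 2 of 3 smaller dynein chains, 2 of 3 nucleotide kinases, 1 of 5 assembly factors, 1 of 3 outer arm heavy chains and 1 of 3 of the ruler and regulatory complex. Leaving out 1 library at a time gave 18 (without alveolar library 2) to 23 lower members.

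*Dynlrb2* was the most different, at 1.88, 1.23 and 0.987 RPKM in BSCs and 41.6, 38.6 and 38.6 RPKM in alveolar cells. Its log2 fold change was −4.85 (SE 0.34, adjusted p = 8.59e-10 by edgeR's quasi-likelihood test). *Cfap53* was at 0.175, 0.118 and 0.0670 against 1.50, 1.88 and 1.05 RPKM, a log2 fold change of −3.60 (SE 0.44, adjusted p = 1.4e-06). *Dnah3* was at 0.109, 0.117 and 0.0688 against 0.716, 0.889 and 0.476 RPKM, a log2 fold change of −2.82 (SE 0.44). No BSC library reached the alveolar range in these 3 genes. Among ciliated-cell markers outside the list, *Cdhr3* (0.339 RPKM in BSCs against 1.47 in alveolar cells), *Ccdc113* (0.229 against 1.50) and *Fam183b* (0.498 against 3.96) were also lower in BSCs by edgeR's quasi-likelihood test, *Tppp3* was higher (220.0 against 108) and *Foxj1* was not called (5.66 against 4.32).

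*Dnah7b* was the member called higher in BSCs, at 0.711, 0.702 and 1.06 RPKM against 0.207, 0.164 and 0.148 RPKM in alveolar cells. Its log2 fold change was 2.24 (SE 0.30, adjusted p = 4.25e-06 by edgeR's quasi-likelihood test). Its copy *Dnah7a* gave 0.0116, 0.00901 and 0.00690 RPKM in BSCs, from 12 reads in all, and 0.0718, 0.0450 and 0.0494 RPKM in alveolar cells. The log2 fold change of *Dnah7a* was −2.54 (SE 0.66, adjusted p = 0.00277 by edgeR's quasi-likelihood test). Both heavy chain genes lie on chromosome 1 (GRCm38.p6), *Dnah7a* at chr1:53396995-53707301 and *Dnah7b* at chr1:46066071-46373551. Of 100-base windows of the transcripts, 20% of *Dnah7a* and 23.5% of *Dnah7b* were identical in another *Dnah7* copy, so the split of reads between copies is uncertain. For *Dnah7b*, 12.2% were identical in *Dnah7a* and 17.1% in *Dnah7c*, a copy outside the list. With library size alone, *Dnah7c* was at 0.127, 0.151 and 0.153 RPKM in BSCs. It was at 0.0767, 0.0599 and 0.0431 RPKM in alveolar cells, the same direction as *Dnah7b*, but was not called higher. *Dnah7b* kept 7.58% of its CD24hi level in BSCs and *Dnah7a* 0.118%. *Nme5* with 0.61 (SE 0.33, adjusted p = 0.109) and *Cfap43*, a tether of inner arms, with 0.46 (SE 0.33, adjusted p = 0.231) had the next highest log2 fold changes and were not called.

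In BSCs 33 members were under 1 RPKM and in EpCAM-negative cells 32. The members above 5% of their CD24hi level in BSCs were *Dnaaf2* (16.6%), *Dnal1* (12.9%), *Spef1* (9.06%) and *Dnah7b*. Member medians per library were 0.375%, 0.373% and 0.273% of the CD24hi level in BSCs, 0.383%, 0.534% and 0.448% in EpCAM-negative cells and 0.821%, 0.980% and 0.578% in alveolar cells. By mean level, BSCs were the lowest of the 6 populations for 26 members. The share of all genes tested with this order was not determined, so the count only describes the members. The most abundant members of EpCAM-negative cells were *Rsph9*, at 7.59, 8.68 and 8.25 RPKM, *Spef1*, *Dnal1*, *Dynlrb2*, at 1.72, 4.49 and 3.11 RPKM, and *Cfap126*, at 2.64, 2.00 and 2.43 RPKM. *Spef1* ran nearly level outside the airway gates, at 9.13, 8.76 and 8.83 RPKM in BSCs, 8.37, 8.09 and 9.36 in alveolar cells and 7.09, 7.33 and 7.06 in EpCAM-negative cells. *Dnal1* was also nearly level in these populations, with means of 4.12, 3.67 and 4.20 RPKM, but it was higher in non-basal cells, with a mean of 6.34 RPKM.

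A list of 67 other axoneme genes with counts, of which 66 were tested, was set beside the members. It too was chosen with earlier results of these data known. In CD24hi against CD24lo cells 62 were higher, 1 was lower and the median log2 fold change was 3.13. Against alveolar cells 64 were higher and 1 lower (6.96), and against non-basal cells 65 were higher (4.00). In non-basal cells against BSCs 57 were higher (3.66), and in CD24lo against alveolar cells 59 were higher and 1, *Cfap20*, lower (3.60). Of all genes tested, 27.8%, 30.5%, 36.9%, 26.2% and 24.2% were higher in these comparisons, in that order. *Dnah17*, an outer arm heavy chain known from sperm, was the gene lower in CD24hi than in CD24lo cells, at −0.75 (SE 0.30, adjusted p = 0.0413 by edgeR's quasi-likelihood test), with means of 0.199 and 0.335 RPKM. *Dnah14*, *Tekt5* and *Spag6* were not called between the airway gates. *Spag6* has a near-identical copy, *Spag6l*, which stood at 132 RPKM in CD24hi cells while *Spag6* stood at 0.278 RPKM.

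Between BSCs and alveolar cells 32 of these other genes were lower and 3 higher, with a median of −1.27, where 35.6% of all genes tested were lower and 30.5% higher. The 3 were *Cfap45*, a protein inside the doublet (1.95, SE 0.29), *Dnah8*, an outer arm heavy chain known from sperm (0.98, SE 0.37), and *Gas8*, a subunit of the nexin-dynein regulatory complex (0.71, SE 0.16). *Gas8* had 10.4 RPKM in BSCs, 11.7 in non-basal cells and 6.37 in alveolar cells, against 119 in CD24hi cells. *Cfap45* had 7.52 RPKM in BSCs and 1.93 in alveolar cells.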

How the data were processed

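The authors aligned reads to mm10 with Rsubread and deposited raw counts per Entrez gene, from featureCounts with its RefSeq annotation, and gene lengths; the processing notes name bcl2fastq 1.8.4. Strand setting and the handling of reads that map to several genes are not given in the sources used here. A joint table repeated the counts of the 18 files and was not used. RefSeq GRCm38.p6 gave symbols for 25275 of the 27179 genes, and GENCODE vM21 gave exon overlaps.

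The filter (CPM over 0.2 in 3 or more libraries) kept 17989 genes, which were analysed in R 4.3.3 with TMM scaling and 1 edgeR 4.0.16 quasi-likelihood fit (glmQLFit, glmQLFTest) of 18 libraries, with a mean per population and Benjamini-Hochberg adjustment over all genes. The standard error of an edgeR log2 fold change was derived as its absolute value divided by the square root of the F statistic of the quasi-likelihood test. RPKM used TMM-scaled library sizes and the deposited lengths. Alternatives were RLE factors, library size alone, limma 3.58.1 voom, DESeq2 1.42.0, a CPM above 1, no filter, the compared libraries alone, thinned tracheal libraries, a mouse block and leaving out each library; leaving out the libraries that stood apart, and CD24lo library 1 from the means compared with non-basal cells, was added after the data were seen. Libraries of an organ share mice by the labels. Deviations from population means correlated at 0.202 to 0.468 between BSC and non-basal libraries of a mouse. They correlated at 0.0820 to 0.354 between CD24hi and CD24lo libraries of a mouse, and at −0.0909 to 0.127 between the other pairs of lung populations. Members and lists were chosen with earlier results of these data known. Members with full values were the 5 highest in CD24hi cells, the highest in alveolar and EpCAM-negative cells, the 3 largest and 3 smallest log2 fold changes of each comparison and the *Dnah7* copies; the outer arm ratios lie outside this rule. The workflow was tested on simulated data. Human libraries were not analysed here.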

Additional observations from a re-analysis of the deposited data

Results flagged for a closer look

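The EpCAM-negative population entered no comparison. In each of its 3 libraries, 3 of the 44 members were higher than in every BSC and alveolar library. Of all genes tested, 25.9% showed this ordering, so it was rarer among the members. *Ccdc39*, part of the ruler that spaces the arms along a doublet, had a mean of 1.47 RPKM (1.35 to 1.62), with a highest value of 1.07 RPKM in BSC or alveolar libraries. *Dnah1*, an inner arm heavy chain, had a mean of 0.584 RPKM (0.521 to 0.667), against at most 0.214 RPKM. *Tekt2* had a mean of 0.600 RPKM (0.442 to 0.714), against at most 0.354 RPKM. For *Ccdc39* 34.2% and for *Tekt2* 25.7% of exonic bases overlap a gene on the opposite strand, and for *Dnah1* 4.28% do. Of the ciliated-cell markers, *Foxj1* (2.08 RPKM in EpCAM-negative and 4.32 in alveolar cells), *Cdhr3* (0.751 and 1.47), *Ccdc113* (0.794 and 1.50) and *Fam183b* (1.50 and 3.96) had lower means in this population, and *Tppp3* (148 and 108) a higher one. Fibroblast markers summed to 2746 to 2940 RPKM against 88.9 to 148 RPKM in alveolar cells. The part of these cell types in the values was not tested.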

How the results depend on the processing

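The counts of members called higher in CD24hi cells, 44 in each of 3 comparisons, were 44 under all 16 alternatives. In non-basal cells against BSCs the count ranged from 40 (library size alone, thinned libraries) to 42, and in CD24lo against alveolar cells from 43 to 44. Library size alone turned the sign of 2 uncalled genes in non-basal cells against BSCs, *Spef1* to −0.23 and *Dnah7b* to −0.13. Members called higher in BSCs than in alveolar cells numbered 5 with library size alone, 4 with only the libraries compared and 3 without the libraries that stood apart, against 1; members called lower ranged from 17 (library size alone, limma voom) to 28 (only the libraries compared). The replicate block by mouse gave 44, 44, 42, 44 and 44 higher members where 44, 44, 42, 44 and 44 were found without the block, and 26 against 24 members lower in BSCs than in alveolar cells. The call of *Dnaaf2* was lost with library size alone (adjusted p = 0.501 by edgeR) and thinned libraries (0.130) in trachea, and with limma voom (adjusted p = 0.0780) and only the libraries compared (0.0729) in CD24lo against alveolar cells. The cause was not tested. Counting error limits the low levels: 3 reads over the libraries of a population come to 0.00229 RPKM in BSCs and 0.00761 RPKM in alveolar cells for *Dnah7a*.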
